A study of Mus musculus with 20 samples.

Results

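10 genes of the thioredoxin and glutathione systems were followed through RNA-seq of mouse T cells stimulated with IL-2 or with IL-2-REH, an IL-2 partial agonist whose contact with the common γ chain of the receptor is weakened. The 10 genes were Txnrd1, Txnrd2, Txn1, Txn2, Txnip, Srxn1, Nqo1, Gclc, Gclm and Prdx1, out of 23992 gene symbols in the files. They were taken by symbol, with the transcript that held the most reads over the 20 libraries standing for each gene. The list was partly chosen by a measured value, since the lower Txnrd1 level with IL-2-REH than with IL-2 was known when the list was drawn up. Those differences are given here as a description only.

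Tregs were sorted by GFP from the CD4+ cells of B6-Foxp3EGFP mice, and CD8+ T cells were isolated by kit, without a sort, from C57BL/6J mice by the protocol, while the strain label of every library reads C57BL/6N. Cells came from spleen and lymph node. They were left unstimulated or received either cytokine at 200 nM, and were taken after 90 min or 4 hr, which makes 5 conditions per cell type. Tregs had 3 libraries per condition (15 in all) and CD8+ T cells had 1 (5 in all). The sources do not say whether libraries of one condition came from separate mice, so p-values measure the spread between libraries, which may be technical. The unstimulated cells carry the label 0h. No unstimulated library of 90 min or 4 hr was analysed, so time and cytokine cannot be told apart against them.

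Depth ran from 20201392 to 63903764 reads on genes in Treg libraries and from 38201667 to 45189835 in CD8+ T cell libraries. The summed RPKM (reads scaled to transcript length and to library size) of 6 Treg markers, Foxp3 among them, was 810 to 1490 in Treg libraries and 37.4 to 93.0 in CD8+ T cell libraries. Cd8a and Cd8b1 summed to 282 to 728 RPKM in CD8+ T cells and 4.46 to 12.7 in Tregs, so labels and markers matched. Leaving out unstimulated Treg replicate 1 raised the number of genes called after IL-2 for 90 min from 128 to 1997. Leaving out unstimulated replicate 2 or 3 instead gave 46 or 44. In unstimulated replicate 1, 5 macrophage markers summed to 14.3 RPKM, against 71.4 and 56.4 in replicates 2 and 3. Replicate 1 was the lowest in every stimulated Treg group too, at 7.30 to 12.9 RPKM against 19.7 to 39.6. Low macrophage RNA was thus shared by the Treg libraries numbered 1 and was not particular to the unstimulated one. B cell and NK cell markers summed to 3.06 and 0.219 RPKM in unstimulated replicate 1. They summed to 9.72 and 6.46 in unstimulated replicate 2 and to 19.1 and 3.67 in 3. The 6 Treg markers summed to 1190 RPKM in unstimulated replicate 1, against 852 and 810. Why leaving out this library raised the calls was not tested. The 5 Treg libraries numbered 3 carried 101 to 187 RPKM of erythroid markers and 60.4 to 227 of neutrophil markers, where no other Treg library exceeded 16.4 and 4.44. In bulk RNA, fewer cells of a type and less RNA per cell cannot be told apart.

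Thioredoxins are small proteins that reduce disulfides, and thioredoxin reductases, which are selenoproteins, recharge them with electrons from NADPH. Txnip binds thioredoxin and blocks it, peroxiredoxins such as Prdx1 use thioredoxin to remove hydrogen peroxide, and sulfiredoxin (Srxn1) restores overoxidized peroxiredoxins. Glutathione, the other main cellular thiol, is made by glutamate-cysteine ligase, whose catalytic subunit is Gclc and whose modifier subunit is Gclm. Many of these genes, Nqo1 being a standard example, are known targets of the transcription factor NRF2 at antioxidant response elements, and IL-2 signals in T cells through STAT5, which binds GAS motifs.

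Since STAT5 and NRF2 have known binding motifs, the RefSeq promoter windows of the members (GRCm38.p6, 250 bases before to 50 after each start site) were searched on both strands for 3 motifs. The 11 windows of 9 members were searched, and none was held for Gclc. The STAT5 GAS motif TTCNNNGAA was found in 3 of the 11 windows, against 8.30% of all 32851 windows. The antioxidant response element core TGACNNNGC was found in 4 of the 11, against 12.4% of all. The E-box CACGTG was found in 0 of the 11, against 7.15%. The sequences shown are the 2 GAS matches and the 1 antioxidant response element match upstream of Txnrd1, the gene called after IL-2, and the antioxidant response element matches of Gclm and Prdx1 for comparison. They are written 5′ to 3′ on the plus strand, with the match in capitals. The antioxidant response element matches lie on the minus strand and so read GCNNNGTCA here, and no match overlaps another.
Txnrd1 GAS, chr10:82858956-82859004, 230 bases before the start at 82859206: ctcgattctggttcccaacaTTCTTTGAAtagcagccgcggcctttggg
Txnrd1 antioxidant response element, chr10:82859094-82859142, 92 bases before the same start: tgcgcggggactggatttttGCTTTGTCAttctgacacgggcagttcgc
Txnrd1 GAS, chr10:82860248-82860296, 73 bases before the start at 82860341: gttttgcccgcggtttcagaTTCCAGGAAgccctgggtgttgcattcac
Gclm antioxidant response element, chr3:122245403-122245451, 134 bases before the start at 122245557: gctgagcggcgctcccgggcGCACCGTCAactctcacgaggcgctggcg
Prdx1 antioxidant response element, chr4:116685446-116685494, 133 bases before the start at 116685599: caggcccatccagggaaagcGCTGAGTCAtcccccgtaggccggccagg
The other matches were a GAS motif 17 bases before the start of Txn2 and an antioxidant response element core 29 bases after the start of Srxn1. A match is a string of letters in a window and not evidence of binding.

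Txnrd1 encodes the cytosolic thioredoxin reductase and lies on the plus strand of chromosome 10 from 82833951 to 82897724 (GRCm38). Unstimulated Treg replicates 1, 2 and 3 held 12.5, 16.3 and 14.04 RPKM. After 90 min of IL-2 they held 45.7, 43.7 and 39.7 RPKM, and after 4 hr 27.8, 28.6 and 28.8. With IL-2-REH they held 21.2, 18.0 and 17.5 RPKM at 90 min and 14.7, 13.2 and 11.1 at 4 hr. Every IL-2 library lay above every unstimulated and every IL-2-REH library. The IL-2-REH libraries at 90 min also lay above the unstimulated ones without overlap, and those at 4 hr overlapped them. The share of all genes whose libraries separate in these ways is not given here.

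**Figure D1:**
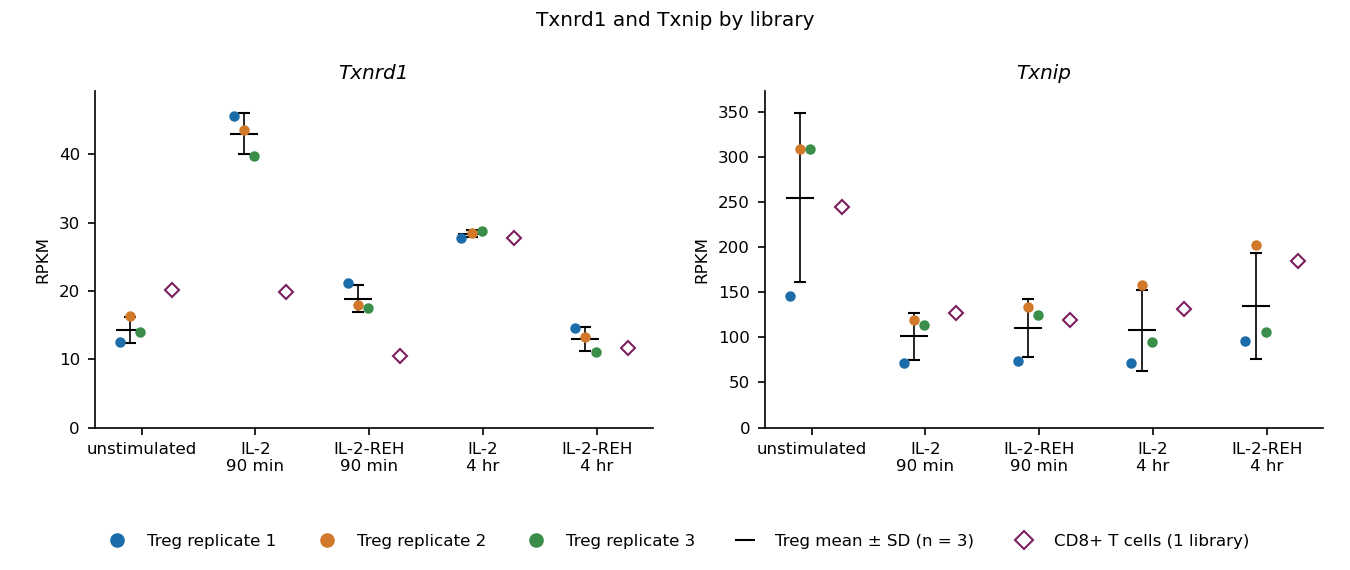
RPKM of Txnrd1 (left) and Txnip (right) in each library, by condition; filled points are Treg replicates, the black bar and whiskers are the Treg mean ± SD (n = 3), and open diamonds are the single CD8+ T cell libraries. Txnrd1 peaks at 43.0 RPKM in Tregs given IL-2 for 90 min, while every stimulated group has a lower mean Txnip than its unstimulated cells.

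In edgeR's quasi-likelihood test over 15009 genes, which all 10 members entered, Txnrd1 was the 1 member of 10 called after 90 min of IL-2, where 0.853% of all genes were called. Its log2 fold change was 1.74 (standard error 0.15, edgeR adjusted p = 7.6e-05). Txnrd1 was also the 1 member called after 4 hr of IL-2, where 2.27% of all genes were called, at 1.08 on the log2 scale (standard error 0.15, edgeR adjusted p = 0.0025). The IL-2 libraries behind both values are the ones in which its difference from IL-2-REH was first seen, so these calls are not independent of the choice of gene. With replicate 2 or replicate 3 left out of every group, Txnrd1 was no longer called at 90 min (edgeR adjusted p = 0.14 and 0.056) or at 4 hr (0.25 and 0.13), with log2 fold changes of 1.03 to 1.71. Fitted on the 2 groups alone, the change at 4 hr was 1.10 (edgeR adjusted p = 0.12). With IL-2 the unadjusted edgeR p was under 0.05 for 4 members at 90 min (Txnrd1, Txnrd2, Txnip and Gclc). At 4 hr it was so for 3 (Txnrd1, Txnip and Txn1). The same held for 2068 and 2657 of all genes. DESeq2 called Txnrd1 at 90 min, and Txnrd1 and Txnip at 4 hr, against 553 and 996 of all genes.

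With IL-2-REH, edgeR called 0 of the 10 members at 90 min, where 0.0933% of all genes were called, and 0 of 10 at 4 hr, where 0.313% were. Unadjusted p-values were under 0.05 for 4 members at 90 min (Txnrd1, Txnrd2, Txnip and Gclc) and for 2 at 4 hr (Txn1 and Txnip). The same held for 1704 and 1998 of all 15009 genes. DESeq2 called 1 member at 90 min, Txnrd1, and 0 at 4 hr, against 113 and 565 of all genes. The Txnrd1 log2 fold change at 90 min was 0.54 (standard error 0.15, edgeR adjusted p = 0.36, DESeq2 adjusted p = 0.019). Without unstimulated replicate 1 it was again 0.54 and was called (edgeR adjusted p = 0.044). At 4 hr it was -0.13 (standard error 0.15, edgeR adjusted p = 0.76).

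As a description of the values that chose the gene, Txnrd1 with IL-2-REH stood at 0.464, 0.413 and 0.440 times its level with IL-2 in Treg replicates 1, 2 and 3 at 90 min. At 4 hr the ratios were 0.527, 0.463 and 0.384. The fitted log2 differences were -1.19 at 90 min and -1.20 at 4 hr (standard error 0.15 each). The change in that gap from 90 min to 4 hr was -0.01 on the log2 scale, with a 95% interval from -0.45 to 0.43. In that test of the gap 0 members and 0.0% of all genes were called by edgeR, with 47 genes and none of the members at an unadjusted p under 0.05, and DESeq2 also called 0 genes.

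Set against 90 min, the Treg level of Txnrd1 was lower at 4 hr under both cytokines, the log2 fold change being -0.66 under IL-2 and -0.67 under IL-2-REH (standard error 0.15 each). Neither passed the edgeR test (adjusted p = 0.15 and 0.20), in comparisons where 0 members and 0.0% of all genes were called, while 2551 and 2188 genes had an unadjusted p under 0.05. With replicate 1 left out of every group, edgeR called Txnrd1 in both, as the 1 member in each, where 4.32% and 3.96% of all genes were called. Over all replicates, DESeq2 called 382 and 251 genes, with Txnrd1 as the 1 member in each (DESeq2 adjusted p = 0.00094 and 0.001). All 3 replicate pairs went down under each cytokine, to 0.608 to 0.724 times the level at 90 min with IL-2 and 0.632 to 0.735 times with IL-2-REH.

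The 4 Txnrd1 transcripts in the files share most of their reads, and summed over the 20 libraries each held at least 97.6% of the reads of the one used here, NM_001042514, so these counts cannot tell the start sites apart. The reads of NM_001042514 beyond those of NM_015762 made up 0.544% to 7.74% of its reads, and the highest share was in replicate 3 of IL-2 at 4 hr. The gene Eid3 lies within the span of Txnrd1 on the same strand but shares 0 exon bases with it in the GENCODE annotation.

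Txnrd2, the mitochondrial reductase (chromosome 16, 18426417 to 18479073), was low in every Treg library, between 2.31 and 6.84 RPKM. Unstimulated replicates 1, 2 and 3 held 3.13, 6.84 and 5.80 RPKM, against 3.50, 3.15 and 2.33 after 90 min of IL-2 and 3.35, 3.09 and 2.31 after 90 min of IL-2-REH. Replicates 2 and 3 were lower with either cytokine, and replicate 1 was not. The log2 fold changes were -0.65 and -0.69 (standard error 0.23 each, edgeR adjusted p = 0.24 and 0.39). Without unstimulated replicate 1 they were -0.86 and -0.90, and both were called (edgeR adjusted p = 0.015 and 0.013).

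Txn1, the cytosolic form (chromosome 4, 57943373 to 57956411), held 48.2, 43.0 and 36.5 RPKM in unstimulated Tregs. After 4 hr it held 60.9, 58.8 and 71.4 with IL-2 and 66.3, 48.8 and 65.3 with IL-2-REH. All 6 libraries at 4 hr lay above the 3 unstimulated ones, and the share of all genes doing so is not given here. For IL-2 the fitted value was 0.65 on the log2 scale (standard error 0.23, edgeR adjusted p = 0.16). Blocking on the replicate number gave 0.66 and a call (edgeR adjusted p = 0.047), and without unstimulated replicate 1 it was 0.85 and called (edgeR adjusted p = 0.041). With IL-2-REH it was 0.50 (standard error 0.23, edgeR adjusted p = 0.36). Txn2, the mitochondrial form (chromosome 15, 77915051 to 77928994), stayed between 19.7 and 38.3 RPKM in all 15 Treg libraries, and its 5 groups overlapped.

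Txnip, the thioredoxin inhibitor, lies on chromosome 3 from 96557957 to 96561857 and was the most abundant member. Unstimulated Treg replicates 1, 2 and 3 held 146, 309 and 309 RPKM. With IL-2 they held 71.3, 119 and 114 at 90 min and 71.1, 157.8 and 95.3 at 4 hr. With IL-2-REH they held 73.7, 133 and 125 at 90 min and 95.8, 203 and 106 at 4 hr. Within each replicate number, every stimulated library lay below its unstimulated one, at 0.309 to 0.656 times its level. Across replicate numbers the groups overlapped at 4 hr, where replicate 2 (157.8 and 203 RPKM) exceeded unstimulated replicate 1. At 90 min they did not overlap, and the share of all genes without overlap is not given here.

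The log2 fold changes of Txnip were -1.13 and -1.17 with IL-2 at 90 min and 4 hr (standard error 0.39 each) and -1.0 and -0.91 with IL-2-REH (0.39 each), and edgeR called none of them (adjusted p = 0.23, 0.15, 0.40 and 0.33). DESeq2 called Txnip with IL-2 at 4 hr only. Blocked on the replicate number, Txnip fell with IL-2 at both times (edgeR adjusted p = 0.013 and 0.0059) and with IL-2-REH at 4 hr (0.036), while IL-2-REH at 90 min had an adjusted p of 0.096. The share of all genes called in those blocked fits was 1.83% and 6.92% with IL-2 and 0.213% and 3.03% with IL-2-REH at 90 min and 4 hr. The members called in them numbered 2 of 10 (Txnrd1 and Txnip), 3 of 10 (Txnrd1, Txnip and Txn1), 0 of 10 and 1 of 10 (Txnip), in the same order. Txnip and the antisense gene Gm15441 share 606 exon bases, whose reads cannot be told apart without strand, and whether strand was used in counting is not given in the sources used here. The sum of the 5 macrophage markers was also lower in the stimulated libraries of each replicate number, though not every marker was in replicate 1. The markers summed to 14.3 RPKM in unstimulated replicate 1 and 7.30 to 12.9 in its stimulated libraries, to 71.4 and 26.3 to 39.6 in replicate 2, and to 56.4 and 19.7 to 32.9 in replicate 3. In replicate 1, Cd68 held 1.93 RPKM unstimulated. It held 2.11 and 1.85 with IL-2 at 90 min and 4 hr, and 1.79 and 2.32 with IL-2-REH. Lyz2 there held 9.74 RPKM unstimulated and 9.75 after 90 min of IL-2-REH, and was lower in the other stimulated libraries. Among stimulated libraries the marker sums did not always follow Txnip. In replicate 2, from 90 min to 4 hr, they fell from 36.3 to 26.3 RPKM with IL-2 and from 39.6 to 32.6 with IL-2-REH, while Txnip rose. In replicate 3 Txnip and the marker sums fell together between those times. The part of these markers' cells in the Txnip values was not tested.

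Leaving out unstimulated Treg replicate 1 changed which members were called. Then 3 of 10 were called after 90 min of IL-2 (Txnrd1 higher, Txnip and Txnrd2 lower), against 12.9% of all genes, and 3 of 10 after 90 min of IL-2-REH (Txnrd1 and Srxn1 higher, Txnrd2 lower), against 12.1%. After 4 hr, 2 of 10 were called with IL-2 (Txnrd1 and Txn1, both higher), against 8.87% of all genes, and 0 of 10 with IL-2-REH, against 6.93%. Without that library the Txnip log2 fold changes lay between -1.40 and -1.15. Blocked on the replicate number as well, 5, 5, 4 and 3 members were called for IL-2 at 90 min, IL-2-REH at 90 min, IL-2 at 4 hr and IL-2-REH at 4 hr, against 26.9%, 25.4%, 21.0% and 16.7% of all genes. With replicate 1 left out of every group and no block, 3, 3, 3 and 1 were called in that order, against 17.3%, 15.7%, 13.4% and 10.7%. Over all 15 libraries, the median log2 fold change of the 10 members was 0.18, 0.13, 0.22 and 0.20 for IL-2 at 90 min, IL-2-REH at 90 min, IL-2 at 4 hr and IL-2-REH at 4 hr, against -0.06, -0.05, 0.00 and 0.01 for all genes.

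**Figure D2:**
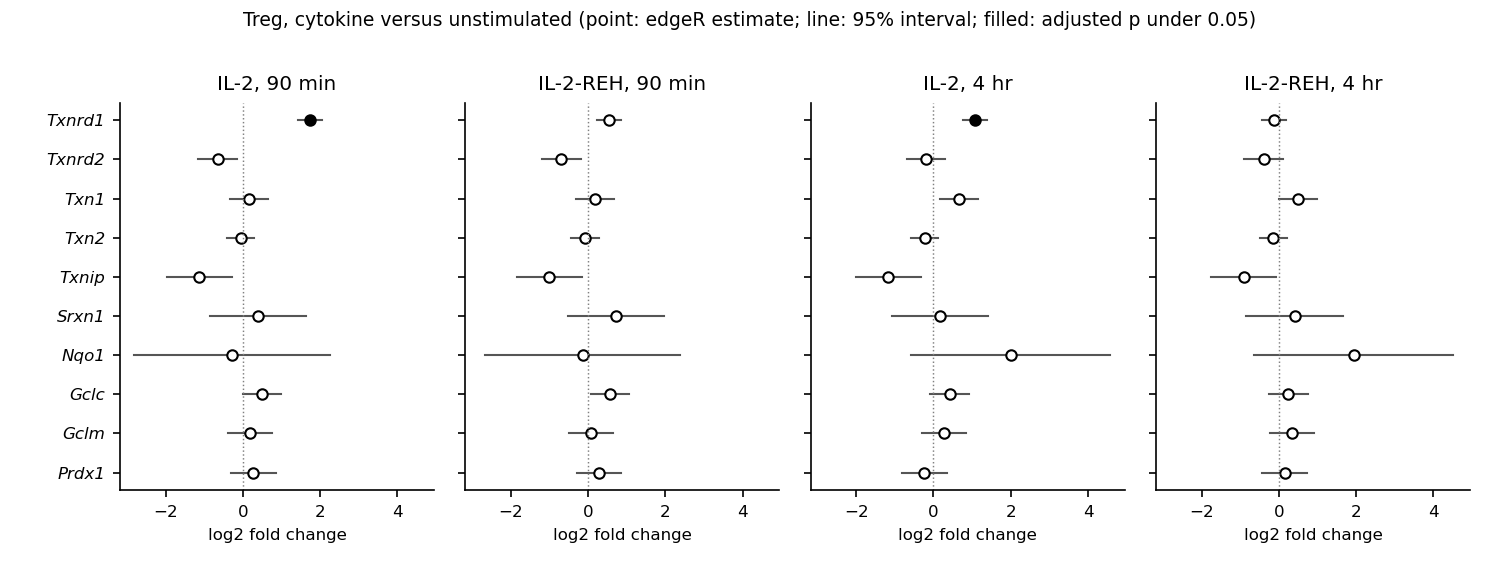
Log2 fold change of each member in Tregs against unstimulated Tregs, for IL-2 and IL-2-REH at 90 min and 4 hr; points are edgeR estimates over the 15 Treg libraries, lines their 95% intervals, and filled points have an adjusted p under 0.05. Only Txnrd1 with IL-2, at 1.74 and 1.08, is filled, and Nqo1 has the widest intervals.

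Srxn1 (chromosome 2, 152105524 to 152111376) was low, and replicate 1 had its highest value in every Treg group. Unstimulated replicates 1, 2 and 3 held 3.54, 0.761 and 0.971 RPKM, and after 90 min of IL-2-REH 4.53, 1.58 and 2.52. After 90 min of IL-2 they held 4.10, 1.49 and 1.42. Each stimulated library at 90 min exceeded the unstimulated library of its number, but the groups overlapped. The log2 fold changes at 90 min were 0.40 for IL-2 and 0.72 for IL-2-REH (standard error 0.58 each, edgeR adjusted p = 0.82 and 0.64). Without unstimulated replicate 1 they were 1.57 (edgeR adjusted p = 0.050, not called) and 1.90 (edgeR adjusted p = 0.025).

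Prdx1 (chromosome 4, 116685599 to 116700000), a cytosolic peroxiredoxin, held 66.9 to 75.9 RPKM in unstimulated Tregs and 67.9 to 95.3 in 11 of the 12 stimulated ones. The exception was replicate 3 of IL-2 at 4 hr, the shallowest library, with 28.0 RPKM against 73.4 and 74.4 in replicates 1 and 2. The interval of Prdx1 for IL-2-REH against IL-2 at 4 hr, which uses that library, ran from -0.19 to 0.97 around a log2 difference of 0.39.

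Nqo1 (chromosome 8, 107388225 to 107403205), a quinone reductase, was the lowest member on the RPKM scale. Its unstimulated Treg values were 0.404, 0.574 and 0.371 RPKM. At 4 hr, replicate 1 stood above the rest under both cytokines, with 4.27 RPKM for IL-2 and 4.31 for IL-2-REH, while replicates 2 and 3 held 0.748 and 0.039 with IL-2 and 0.570 and 0.202 with IL-2-REH. The group means at 4 hr (1.69 ± 2.27 and 1.70 ± 2.28 RPKM, SD, n = 3 each) therefore rest on 1 library each. The 95% intervals of the log2 fold change ran from -0.58 to 4.58 and from -0.64 to 4.51.

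For glutathione synthesis, Gclc (chromosome 9, 77754535 to 77794489) held 15.7, 13.7 and 11.9 RPKM in unstimulated Tregs. After 90 min it held 18.6, 15.8 and 18.7 with IL-2 and 19.3, 16.6 and 19.7 with IL-2-REH. All 6 of these libraries lay above the 3 unstimulated ones, the closest pair being 15.8 and 15.7. The share of all genes doing so is not given here. The log2 fold changes were 0.50 and 0.56 (standard error 0.23 each, edgeR adjusted p = 0.36 and 0.41). At 4 hr the groups overlapped, with a lowest value of 10.4 RPKM in replicate 3 of IL-2-REH. Gclm (chromosome 3, 122245487 to 122267215) stayed between 3.67 and 7.98 RPKM in the 15 Treg libraries, and its 5 groups overlapped. The RPKM scale is per length, and the mean over the 15 Treg libraries was 16.9 RPKM for Gclc and 5.83 for Gclm.

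**Figure D3:**
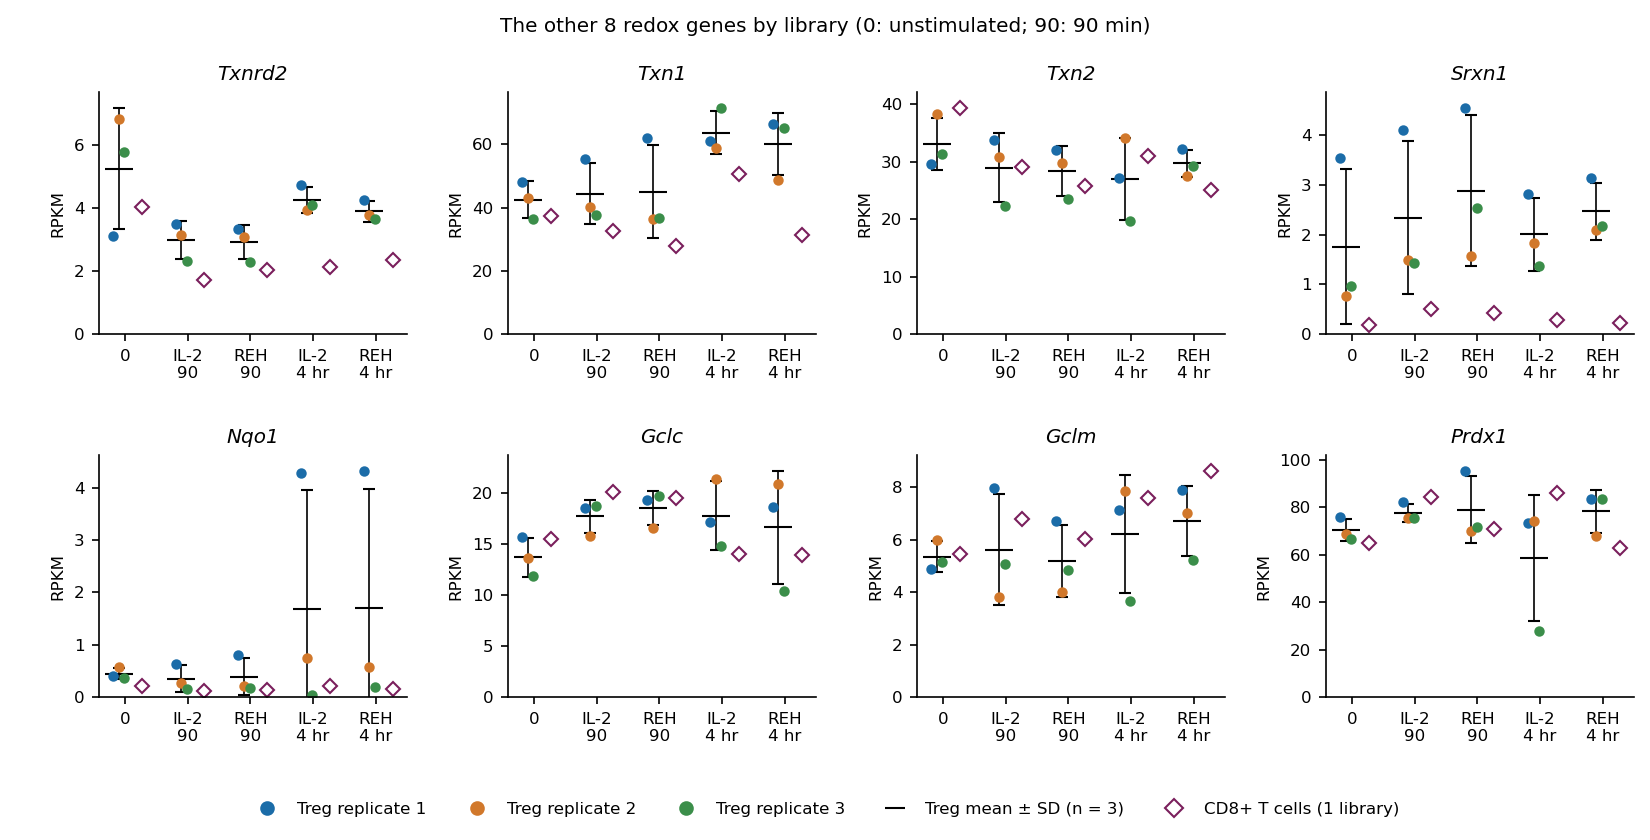
RPKM of the other 8 members in each library, by condition; filled points are Treg replicates, black bars and whiskers the Treg mean ± SD (n = 3, cut at 0), and open diamonds the single CD8+ T cell libraries. Srxn1 is lower in CD8+ T cells than in all Treg libraries of the same condition, and single libraries set the spread of Nqo1 at 4 hr and of Prdx1 with IL-2 at 4 hr.

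Set in order by the mean RPKM over the 15 Treg libraries, the members ran from Txnip (142) and Prdx1 (72.8) through Txn1 (51.2), Txn2 (29.4), Txnrd1 (23.5) and Gclc (16.9) to Gclm (5.83), Txnrd2 (3.86), Srxn1 (2.29) and Nqo1 (0.915). The order of the middle members varied by condition. Txnrd1 (43.0 RPKM) was above Txn2 (29.0) with IL-2 at 90 min and below Gclc (16.6) with IL-2-REH at 4 hr, and Txn1 (63.7) was above Prdx1 (58.6) with IL-2 at 4 hr, where 1 Prdx1 library was low. Within Txnrd1 the order of the condition means was IL-2 at 90 min (43.0 ± 3.02), IL-2 at 4 hr (28.4 ± 0.524), IL-2-REH at 90 min (18.9 ± 2.0), unstimulated (14.3 ± 1.89) and IL-2-REH at 4 hr (12.98 ± 1.81 RPKM, SD, n = 3 each). The last 2 did not differ beyond their spread. Within Txnip the order was unstimulated (255 ± 93.8), IL-2-REH at 4 hr (135 ± 59.1), IL-2-REH at 90 min (111 ± 32.3), IL-2 at 4 hr (108 ± 44.8) and IL-2 at 90 min (101 ± 26.1 RPKM, SD, n = 3 each). The 4 stimulated means of Txnip lay within one another's spread.

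In the contrast of the cytokines, Txnrd1 was the 1 member of 10 called at each time, where 0.0133% of all genes were called at 90 min and 0.0267% at 4 hr. Nothing is read from those counts, because this contrast helped choose the gene. The other 9 members had log2 differences from -0.11 to 0.33 at 90 min and from -0.20 to 0.39 at 4 hr, none called. The 95% interval at 90 min ran from -0.54 to 0.46 for Txnrd2, from -0.71 to 0.96 for Txnip and from -2.40 to 2.68 for Nqo1. Txnip was higher with IL-2-REH in all 3 Treg pairs at both times, at 1.03 to 1.12 times its IL-2 level at 90 min and 1.11 to 1.35 times at 4 hr. Its fitted log2 difference at 4 hr was 0.25, with an interval from -0.58 to 1.09.

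**Figure D4:**
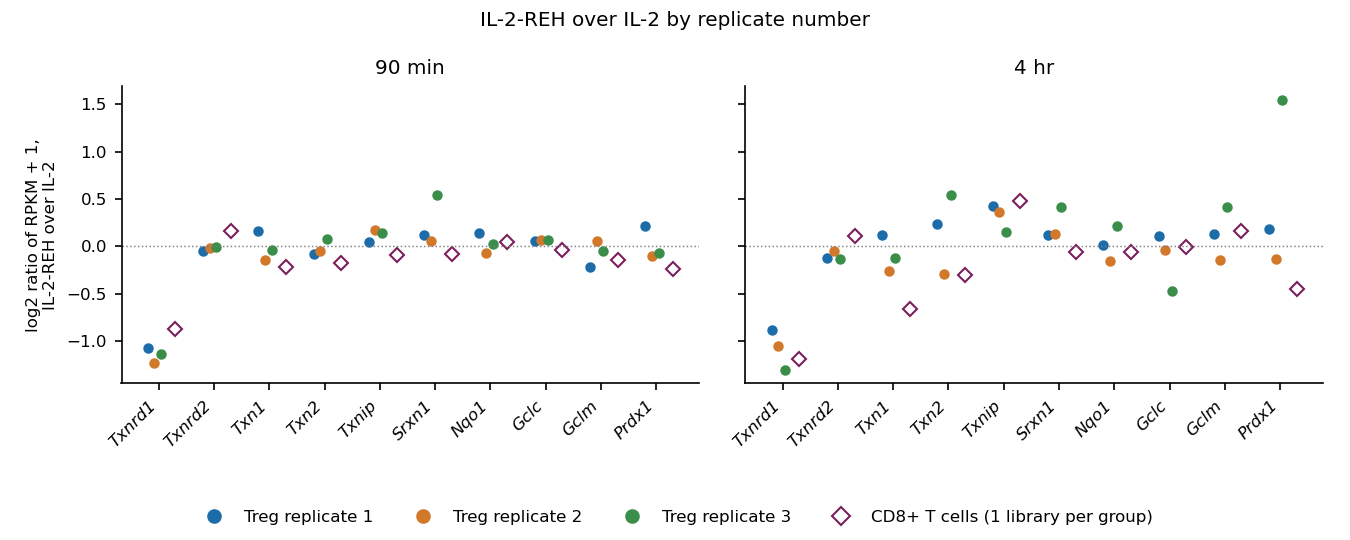
Log2 ratio of RPKM + 1 of IL-2-REH over IL-2 for each member at 90 min (left) and 4 hr (right); filled points are Treg replicates of the same number and open diamonds the single CD8+ T cell libraries. Txnrd1 lies between -1.30 and -0.87 in all 8 ratios, and the point at 1.54 for Prdx1 is replicate 3 at 4 hr.

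CD8+ T cells had 1 library per condition, so their values have no replicate check and no test. Txnrd1 held 20.1 RPKM unstimulated, 19.9 and 27.8 with IL-2 at 90 min and 4 hr, and 10.4 and 11.6 with IL-2-REH. The level after 90 min of IL-2 was that of the unstimulated library (0.988 times), and the level at 4 hr was 1.38 times it. With IL-2-REH the level was 0.519 and 0.576 times the unstimulated one. The ratio of IL-2-REH to IL-2 was 0.525 at 90 min and 0.418 at 4 hr.

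Txnip in CD8+ T cells held 244 RPKM unstimulated, 127 and 132 with IL-2 at 90 min and 4 hr, and 119 and 185 with IL-2-REH. All 4 stimulated libraries lay below the unstimulated one, at 0.488 to 0.756 times its level. Markers of other cells were also lower in them. The macrophage markers summed to 34.2 RPKM unstimulated and 13 to 19.5 stimulated, the B cell markers to 12.8 and 3.81 to 5.44, and the NK cell markers to 11 and 4.57 to 6.90. The CD8+ T cells' own markers Cd8a and Cd8b1 were lower too, summing to 728 RPKM unstimulated and 282 to 493 stimulated. Neutrophil markers summed to 1.99 RPKM unstimulated, 1.97 and 0.398 with IL-2 at 90 min and 4 hr, and 1.34 and 0.846 with IL-2-REH. Erythroid markers summed to 9.75 RPKM unstimulated and 2.49 to 5.46 stimulated. The part of other cells in the Txnip values was not tested. On the log2 scale of RPKM + 1, with a change counted past 2-fold, Txnip after 90 min of IL-2-REH was 1 of 8 members past it, all 8 with a mean of at least 1 RPKM in CD8+ T cells, against 8.57% of 10021 such genes. The median of all genes moved by -0.12 in that comparison, and Txnip was not past 2-fold once this shift was taken out. Txnrd1 with IL-2-REH against IL-2 at 4 hr was the other count, 1 of 8, against 2.23%. In the remaining comparisons 0 of 8 members were past 2-fold, against 7.24% of genes for IL-2 at 90 min, 4.71% for IL-2 at 4 hr, 6.11% for IL-2-REH at 4 hr and 0.868% for IL-2-REH against IL-2 at 90 min. Srxn1 and Nqo1 were under the 1 RPKM mean.

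Between the cell types, Srxn1 was the 1 member of 10 whose CD8+ T cell library lay outside the range of the 3 Treg libraries on the same side in all 5 conditions. The same held for 22.0% of 10457 genes. Srxn1 held 0.180 RPKM in unstimulated CD8+ T cells, 0.512 and 0.284 with IL-2 at 90 min and 4 hr, and 0.428 and 0.236 with IL-2-REH, against 0.761 to 4.53 in Tregs. Txn1, Txnrd2 and Nqo1 were below the Treg range in 4 of 5 conditions. Txnrd1 was below it in 3 conditions and above it in 1, and Prdx1 was below it in 2 and above it in 2, so that its mean ratio of CD8+ T cells to Tregs of 1.01 joins unlike conditions. The mean ratios of Txn2, Gclc and Gclm were 1.02, 0.982 and 1.18. Library and cell type cannot be told apart here.

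The 103 genes of 6 related lists were all tested. After 90 min of IL-2, 1 of 103 was called by edgeR, with 23 at an unadjusted p under 0.05 and 6 called by DESeq2. Of all 15009 genes edgeR called 0.853%, 2068 had an unadjusted p under 0.05, and DESeq2 called 553. The listed gene called by edgeR, Ddit4, a stress-induced inhibitor of mTORC1 signaling, fell by 1.76 on the log2 scale (edgeR adjusted p = 0.040), from 43.7 ± 24.3 to 11.5 ± 4.25 RPKM (SD, n = 3 each). After 4 hr of IL-2, edgeR called 5 of 103, against the 2.27% of all genes given above, with 29 at an unadjusted p under 0.05 and 17 called by DESeq2. Of all 15009 genes, 2657 had an unadjusted p under 0.05 and DESeq2 called 996. Txnrd3, the third thioredoxin reductase, rose by 1.05 (edgeR adjusted p = 0.018), from 1.35 ± 0.212 to 2.67 ± 0.315 RPKM. Bach2, a transcriptional repressor of the BACH family, rose by 1.06 (adjusted p = 0.032), from 12.6 ± 3.40 to 24.7 ± 6.04 RPKM.

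Of those that fell at 4 hr, Gsta4, a glutathione S-transferase, changed by -1.92 (edgeR adjusted p = 0.0069), from 9.77 ± 4.20 to 2.4 ± 0.145 RPKM. Osgin1, an oxidative stress-induced gene, changed by -2.34 (adjusted p = 0.048) and held 2.77, 9.39 and 9.57 RPKM at its lowest, median and highest in unstimulated Tregs. The glucose transporter gene Slc2a3 changed by -1.33 (adjusted p = 0.036), from 21.5 ± 9.33 to 8.0 ± 1.72 RPKM. With IL-2-REH edgeR called 0 of 103 at either time, with 18 and 24 at an unadjusted p under 0.05, and DESeq2 called 0 at 90 min and 9 at 4 hr. Of all genes edgeR called 0.0933% and 0.313%, 1704 and 1998 had an unadjusted p under 0.05, and DESeq2 called 113 and 565. Between the cytokines 0 of 103 were called at either time, with 0 and 9 at an unadjusted p under 0.05 and 0 by DESeq2. Of all genes edgeR called 0.0133% and 0.0267%, 149 and 558 had an unadjusted p under 0.05, and DESeq2 called 15 and 58.

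By list, the edgeR calls with IL-2 at 4 hr were 1 of 21 relatives of thioredoxin and peroxiredoxin (higher), 1 of 23 genes of glutathione synthesis and use (lower), 2 of 23 NRF2 regulators and targets (1 higher, 1 lower) and 1 of 11 relatives and regulators of Txnip (lower). Of 16 NADPH supply genes and 9 selenoprotein synthesis genes edgeR called 0 there, while DESeq2 and the blocked edgeR fit called Idh1, an NADPH-forming isocitrate dehydrogenase (0.77 in the blocked fit, edgeR adjusted p = 0.039). The median log2 fold change of the glutathione list was -0.42 there, against 0.00 for all genes. It was below that of all genes in the other comparisons with unstimulated Tregs too. The list stood at -0.305 with IL-2 at 90 min, and at -0.333 and -0.207 with IL-2-REH at 90 min and 4 hr. Without unstimulated replicate 1, the listed genes called numbered 18 of 103 after 90 min of IL-2, 15 after 90 min of IL-2-REH and 15 at 4 hr with each, against 12.9%, 12.1%, 8.87% and 6.93% of all genes. The 4 comparisons share the remaining unstimulated libraries, so their calls are not independent. The share of all genes called in all 4 is not given here. In those fits 6 listed genes were called in all 4 comparisons. Txnrd3 (log2 fold change 0.78 to 1.20), the ferritin light chain gene Ftl1 (0.79 to 0.91) and Sqstm1 (0.88 to 1.36), which encodes the autophagy receptor p62, were higher, and Gsta4 (-2.17 to -1.01), Ddit4 (-2.05 to -1.39) and Slc2a3 (-1.61 to -1.04) were lower. Over all 15 libraries edgeR called neither Ftl1 nor Sqstm1 in any of the 4, while DESeq2 called Ftl1 in 3 of them. With the replicate block the listed genes called numbered 2, 0, 14 and 6 in the order IL-2 at 90 min, IL-2-REH at 90 min, IL-2 at 4 hr and IL-2-REH at 4 hr, against 1.83%, 0.213%, 6.92% and 3.03% of all genes.

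Over the 15 Treg libraries, the genes whose log2(RPKM + 1) followed Txnrd1 most closely, out of 10473, were Ppp1r3b (Pearson r = 0.937, Spearman rho = 0.936), Frmd6 (0.922 and 0.914), Gpsm2 (0.915 and 0.879), Abtb2 (0.913 and 0.925) and Mettl13 (0.908 and 0.896). Without the 2 libraries farthest from the median Txnrd1 level, r was 0.860 to 0.915. For Txnip they were Gm14085 (r = 0.951, rho = 0.904), Parp3 (0.910 and 0.896), Iqsec1 (0.910 and 0.850), F13a1 (0.905 and 0.843) and Unc93b1 (0.901 and 0.796). Without unstimulated replicates 2 and 3, r was 0.750 to 0.905 for these. The points share conditions and libraries, so these values describe likeness in these samples only.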

How the data were processed

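RNA was sequenced in 15 Treg and 5 CD8+ T cell libraries (50 bp single-end reads). The authors mapped reads to mm10 with Bowtie2 2.2.6 and TopHat2 2.1.1, kept unique alignments, and deposited a read count on exons and an RPKM value for 31682 RefSeq transcripts. SAMtools 0.1.8, bedtools 2.25.0 and edgeR are also named in the submitters' processing notes.

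From the deposited counts, edgeR 4.0.16 (TMM, filterByExpr, quasi-likelihood test, 1 mean per group over the 15 Treg libraries) was fitted in R 4.3.3 to 15009 genes, with Benjamini-Hochberg adjustment over all of them and calls at an adjusted p under 0.05. Alternatives were DESeq2 1.42.0, limma 3.58.1 on log2(RPKM + 1) or log2(RPKM + 0.1), other size factors, filters, transcripts and sample sets, and the replicate number as a block. Same-numbered libraries deviated together (correlations of 0.121 to 0.839 in the 8 pairwise contrasts), so the numbers were taken to pair the libraries in the ratios and the block. The main fit left this pairing out, so its p-values include the spread between replicate numbers. The deposited RPKM gave the levels and the CD8+ T cell ratios, counted past 2-fold. No 2 libraries held identical values. The fit was also run on simulated counts drawn independently for each library. These held no effect of replicate number, so that run does not cover the pairing. The members, lists and tests were chosen with earlier results of these data known. All members were named, as were listed pathway genes past the threshold (at most 5 in each direction by size) and the 5 genes most correlated with Txnrd1 and with Txnip; Ftl1, Sqstm1 and Idh1 were chosen from their values. Summed marker lists were Treg, CD8 T cell, B cell (2.14 to 19.1 RPKM), macrophage (5 of 6 markers in the files), erythroid, neutrophil and NK cell (0.0174 to 11.0 RPKM).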

Additional observations from a re-analysis of the deposited data

Results flagged for a closer look

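In 13 comparisons of a member between conditions the single CD8+ T cell ratio went the opposite way to all 3 Treg pairs. This rule used the sign alone, with no least size, over every member and every pairwise contrast. The share of all genes meeting it is not given here, so the count has no background to be set against. The sign of a small ratio from single libraries has no replicate check. In each of the 13 the difference between the cell types was not tested. On the log2 scale of RPKM + 1, Txnrd1 after 90 min of IL-2 was -0.02 in CD8+ T cells and 1.79, 1.37 and 1.44 in the Treg pairs. After 90 min of IL-2-REH it was -0.89 in CD8+ T cells and 0.71, 0.14 and 0.30 in Tregs. Between 90 min and 4 hr, Txnrd1 was 0.46 with IL-2 in CD8+ T cells, against -0.70, -0.60 and -0.45 in Tregs, and 0.14 with IL-2-REH, against -0.50, -0.42 and -0.62. Prdx1 with IL-2 was 0.03 between those times, against -0.16, -0.02 and -1.40. Gclc after 4 hr of IL-2 was -0.14 in CD8+ T cells, and Txn1 after 4 hr of IL-2-REH was -0.24. For IL-2-REH against IL-2 at 90 min the CD8+ T cell ratios were 0.16 for Txnrd2, -0.09 for Txnip, -0.08 for Srxn1 and -0.04 for Gclc. At 4 hr they were 0.11 for Txnrd2 and -0.06 for Srxn1. Several of these ratios were small, such as -0.02, 0.03 and -0.04, while others, such as -0.89 and 0.46 for Txnrd1, were larger. Some Treg pairs were small too, those of Txnrd2 for IL-2-REH against IL-2 at 90 min being -0.05, -0.02 and -0.01.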

How the results depend on the processing

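Of 204 recomputed member counts 153 stayed within 1.5 times the reported count, and of 523 recomputed log2 fold changes 442 kept their direction and side of the threshold. For cytokine against unstimulated Tregs, in the order IL-2 at 90 min, IL-2-REH at 90 min, IL-2 at 4 hr and IL-2-REH at 4 hr, members called numbered 1, 0, 1 and 0. The replicate block gave 2, 0, 3 and 1, the block without unstimulated replicate 1 gave 5, 5, 4 and 3 (26.9%, 25.4%, 21.0% and 16.7% of all genes), and leave-one-out ranges were 0 to 3, 0 to 3, 0 to 3 and 0 to 1. Without replicate 1 in every group the numbers were 3, 3, 3 and 1 (17.3%, 15.7%, 13.4% and 10.7% of all genes). The block changed no other member's call. DESeq2 called 1 member with IL-2-REH at 90 min (113 of all genes) and 2 with IL-2 at 4 hr (996 of all genes). A fit on the groups compared alone called 0 members with IL-2 at 4 hr. Between the cytokines the 1 member called became 0 with limma at either pseudocount and with only the groups compared, at both times, and on leaving out 1 library of the groups compared or 1 replicate number it was 0 at 90 min and 0 to 1 at 4 hr. Between times, 0 became 1 for each cytokine with DESeq2, and 0 to 1 on leaving out libraries (1 without replicate 1). In CD8+ T cells, a pseudocount of 0.1 gave 1 member after 90 min of IL-2, a log2 ratio above 2 gave 0 for IL-2-REH at 90 min and for IL-2-REH against IL-2 at 4 hr, and centring gave 0 for the former. Members outside the Treg range numbered 1 to 3 without replicate 1, 2 or 3. The change of the Txnrd1 gap with time, -0.01, turned to 0.02 with the longest transcript, 0.07 and 0.05 with limma at pseudocounts of 1 and 0.1, 0.00 with only the groups compared, and -0.12 to 0.11 on leaving out libraries. On leaving out libraries Srxn1 ranged from -0.11 to 1.57 with IL-2 at 90 min and -0.23 to 1.34 at 4 hr, and Txnrd2 from -0.51 to 0.05 with IL-2 at 4 hr. In each case the cause was not tested. CD8+ T cells had no replicate, and Nqo1, Srxn1 and Txnrd2 had the fewest reads.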
